A study of Mus musculus with 8 samples.

Results

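The 9 genes described here are Ifit1, Ifit2, Ifit3 and Ifit3b of the IFIT family, and the antiviral effectors Rsad2, Bst2, Ifi44, Ifi27l2a and Ifitm3. They are interferon-induced genes picked by name from a table of 24421 genes, and all 9 passed the filter on low counts that kept 17328 genes for testing. They were picked because they were high 1 day after an inflammatory injection, so every comparison with the 1d libraries, and 3d against 0d, which follows from them, is given below as a description. So is 30d against 3d, since the 3d values were also in view. Calls at edgeR's adjusted p of 0.05 are counted there only as a description of these libraries, beside the share of all genes called, with no p for a gene and with nothing read from the count. Only 30d against 0d carries p-values, and its 0d libraries also entered the choice.

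RNA came from dorsal root ganglia (DRG, the clusters of sensory neuron bodies beside the spinal cord) of wild type (WT) mice, labelled C57BL/6J and 8 weeks old. The study's methods differ, with male mice of the substrain C57/Bl6JRj and a wider range of ages. Mice of the 1d, 3d and 30d groups received 20 µL of 1% carrageenan, a seaweed polysaccharide that inflames tissue, in the left hind paw, and mice of the 0d group were naive and untreated, so no group had a sham injection. Each of the 4 groups held 2 libraries, each a pool of 2 to 3 mice. The p-values therefore measure a spread between pools, not between mice. That spread was estimated over all 4 groups in 1 fit, with information shared between genes. The labels call the samples DRG neurons, but whole ganglia were dissected and glial genes were abundant. The 5 Schwann cell markers summed to between 5408 and 10750 CPM (counts of a gene scaled to a common library size) over the 8 libraries, beside 14130 to 14360 CPM for the 9 neuronal markers at 0d. In such bulk RNA, fewer cells of a type and less RNA per cell cannot be told apart. The libraries held 44123208 to 73580338 counts, and the 2 1d libraries were the lowest, whose part in the results was not tested. CPM here use library sizes after TMM scaling, which corrects for differences in composition.

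Cells that sense viral nucleic acid or interferon switch on a shared programme: interferon receptors activate JAK kinases, which phosphorylate STAT transcription factors, and a complex of STATs with the partner IRF9 binds the interferon-stimulated response element (ISRE) before target genes. Other IRFs are activated by kinases downstream of the nucleic acid sensors. IFIT proteins are built of tetratricopeptide repeats and bind RNA that carries viral features at its 5′ end, or each other. Rsad2 (viperin) makes a nucleotide analogue that ends viral RNA synthesis. Bst2 (tetherin) holds budding virus at the cell surface, and Ifitm3 blocks the fusion of viral and endosomal membranes. The roles of Ifi44 and Ifi27l2a are less well defined.

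The promoter stretches that hold ISRE letters are shown because the ISRE is the element through which genes of this class are known to respond. Whether these matches bear on the levels measured here was not tested. The ISRE core, searched as GAAA, any 2 bases and GAAA again on both strands between 250 bases before and 50 bases after each RefSeq transcript start (GRCm38.p6), was found for 6 of the 8 genes that had a window in the RefSeq promoter table. Among all 27025 genes with a window, 3.99% held it. Capitals mark the matches, which read TTTC, 2 bases and TTTC where they lie on the opposite strand, and each line gives 20 bases on either side except for Ifitm3.
Ifit1, chr19:34640765-34640833, plus strand: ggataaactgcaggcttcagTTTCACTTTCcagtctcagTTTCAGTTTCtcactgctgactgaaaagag
Ifit3, chr19:34583353-34583436, plus strand: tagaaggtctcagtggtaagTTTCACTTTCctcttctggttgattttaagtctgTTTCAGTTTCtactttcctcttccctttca
Ifit3b, chr19:34607749-34607832, plus strand: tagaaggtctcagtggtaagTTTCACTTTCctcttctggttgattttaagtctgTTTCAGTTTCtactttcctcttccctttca
Rsad2, chr12:26456543-26456592, minus strand: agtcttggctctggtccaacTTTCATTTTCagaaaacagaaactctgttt
Bst2, chr8:71537567-71537622, minus strand: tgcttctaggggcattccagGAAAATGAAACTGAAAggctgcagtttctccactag
Ifitm3, chr7:141010715-141010744, minus strand: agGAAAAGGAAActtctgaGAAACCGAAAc

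Ifit1, Ifit3, Ifit3b, Bst2 and Ifitm3 held 2 matches each and Rsad2 held 1, while 0.225% of all 32851 windows held at least 2. The first bases of the matches lay at -104 and -85 in Ifit1, -156 and -122 in Ifit3, -188 and -154 in Ifit3b and -120 in Rsad2, counted from the transcript start. In Bst2 the matches, at -130 and -124, overlapped. In Ifitm3 both lay after the start, at 3 and 20. Ifit2, with 2 windows, and Ifi44 held no match, which says only that these letters are not in these windows. The gamma-activated site GAS (TTCNNNGAA) was found in 3 of the 8 genes, Ifit2, Bst2 and Ifitm3, against 9.55% of all genes, and it overlapped an ISRE match in Bst2 and in Ifitm3. Among genes of the same pathway the ISRE core was found in 11 of 23 other antiviral effectors with a window, 3 of 9 family relatives and 0 of 8 receptors and kinases.

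**Figure D1:**
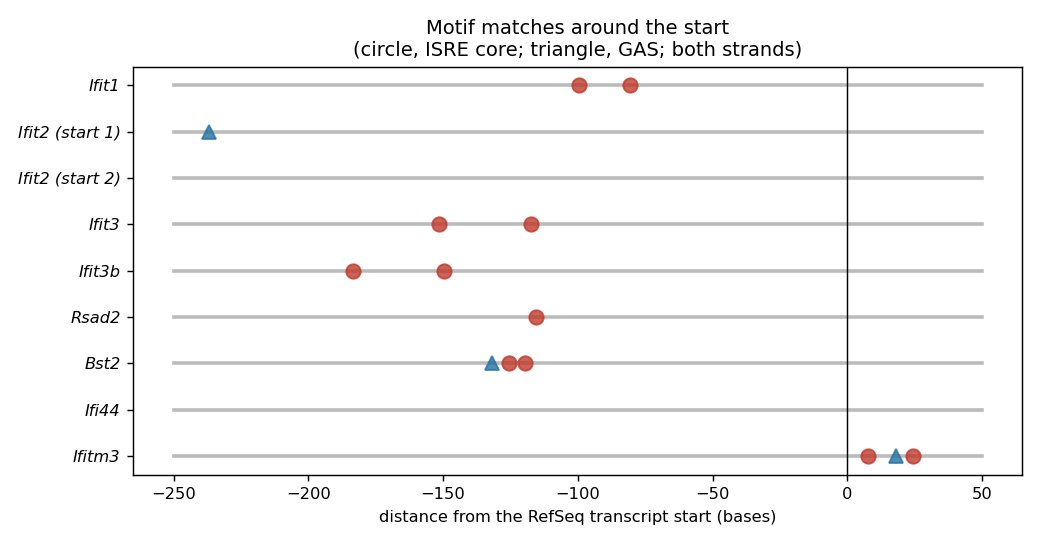
Matches to the ISRE core (circles) and the GAS (triangles), on both strands, in the windows of the 8 genes, by distance in bases from the RefSeq transcript start (vertical line). Matches of Ifit1, Ifit3, Ifit3b, Rsad2 and Bst2 lie between -188 and -76, those of Ifitm3 lie after the start, and Ifi44 holds none.

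The 4 Ifit genes lie within 99.3 kb of chromosome 19 (mm10), all on the plus strand. Ifit2 spans 34550694 to 34576534, Ifit3 spans 34583529 to 34588982, Ifit3b spans 34607957 to 34613401 and Ifit1 spans 34640889 to 34650009. Ifit3 and Ifit3b are near copies. Of the 50-base words of their exons, 51.2% of those of Ifit3 occur in Ifit3b and 44.5% of those of Ifit3b occur in Ifit3, and the 250 bases before the Ifit3b start were 94.8% identical to the Ifit3 window. Reads that map to both were not counted, so the level of each is a lower estimate and the split between them is uncertain. Elsewhere, Rsad2 spans 26442743 to 26456452 of chromosome 12, Bst2 spans 71534262 to 71537437 of chromosome 8 and Ifi44 spans 151730923 to 151749959 of chromosome 3. Ifi27l2a spans 103433873 to 103443680 of chromosome 12, and 11.7% of its exon bases overlap those of Ifi27, where reads counted for both genes. Ifitm3 spans 141009590 to 141010744 of chromosome 7.

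All 9 genes were present in untreated ganglia. The levels of Ifit3 and Ifit3b are lower estimates, since reads that map to both were not counted. Their places in the orders below are therefore uncertain. Compared per kb of exon, Ifitm3 had the highest level at 0d, 46.6 ± 0.757 CPM per kb (mean ± SD, n = 2, as for the values that follow). Ifi27l2a (17.8 ± 3.12) and Bst2 (13.9 ± 2.56) came next and overlapped each other. Ifit2 (9.04 ± 0.235), Ifit1 (8.56 ± 0.110) and Ifit3 (6.89 ± 0.025) followed without overlap, Ifit3b (2.59 ± 0.160) overlapped Rsad2 (2.23 ± 0.385), and Ifi44 was the lowest (0.818 ± 0.166). At 1d the order differed below Ifitm3 (70.8 CPM per kb). Bst2 (27.5 ± 5.99) and Ifit1 (27.5 ± 5.22) stood level, and Ifit3 (23.0 ± 1.94) and Ifi27l2a (22.2 ± 2.11) followed, each overlapping its neighbour in this order. Ifit2 stood under all of these at 12.2 CPM per kb. At 3d Ifi27l2a (17.6 to 20.5 CPM per kb) was again second, Bst2 (14.5 to 15.4) overlapped Ifit1 (14.4 to 14.5), and Ifit2 (8.78 to 10.1) overlapped Ifit3 (9.52 to 9.63). At 30d the order was that of 0d except that Ifit1 (6.56 to 6.65) lay within the range of Ifit3 (5.58 to 7.45) and Rsad2 (2.67 to 2.88) within that of Ifit3b (2.42 to 3.04).

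Of the 9 genes, Ifit1, Ifit3 and Ifit3b of the RNA-binding IFIT family had the largest rises at 1d on the log2 scale. Ifit1 held 22.8 and 22.4 CPM in the 0d libraries, 82.2 and 62.7 in those of 1d, 38.1 and 38.3 in those of 3d and 17.3 and 17.6 in those of 30d. Its 4 pairs of libraries did not overlap, with 1d highest, 3d next and 30d below 0d. Ifit3 held 13.8 and 13.7 CPM in the 0d libraries, 48.8 and 43.3 in those of 1d, 19.2 and 19.03 in those of 3d and 14.9 and 11.1 in those of 30d. Ifit3b held 4.99 and 5.45 CPM in the 0d libraries, 19.1 and 17.6 in those of 1d, 6.50 and 6.32 in those of 3d and 6.11 and 4.87 in those of 30d. In both copies the 1d and 3d libraries stood above both 0d libraries, and the 30d libraries lay on both sides of the 0d libraries. Ifit2 held 36.4 and 35.1 CPM in the 0d libraries, 48.7 and 47.3 in those of 1d, 34.7 and 39.8 in those of 3d and 35.6 and 35.8 in those of 30d. Of the 4 Ifit genes it moved least, and its 3d libraries already overlapped those of 0d.

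Rsad2 held 7.43 and 9.49 CPM in the 0d libraries, 25.2 and 19.4 in those of 1d, 9.58 and 10.1 in those of 3d and 10.9 and 10.1 in those of 30d. After 1d it stayed slightly above both 0d libraries at each time. Bst2 held 9.28 and 12.05 CPM in the 0d libraries, 24.3 and 17.8 in those of 1d, 11.1 and 11.8 in those of 3d and 9.58 and 8.51 in those of 30d. Ifitm3 held 30.5 and 29.9 CPM in the 0d libraries, 50.3 and 41.4 in those of 1d, 27.0 and 31.2 in those of 3d and 26.4 and 25.9 in those of 30d. Both membrane proteins stood apart from 0d at 1d and overlapped it at 3d. Ifi44 held 2.72 and 2.04 CPM in the 0d libraries, 5.95 and 5.29 in those of 1d, 3.28 and 3.68 in those of 3d and 1.38 and 2.06 in those of 30d. It had the fewest reads, down to 82 in 1 of the 30d libraries, where Ifit1 reached 3810 in 1 of the 1d libraries. Ifi27l2a held 13.8 and 17.7 CPM in the 0d libraries, 21.0 and 18.3 in those of 1d, 15.5 and 18.1 in those of 3d and 12.7 and 15.4 in those of 30d. The lower of its 1d libraries stood just above the higher of its 0d libraries.

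**Figure D2:**
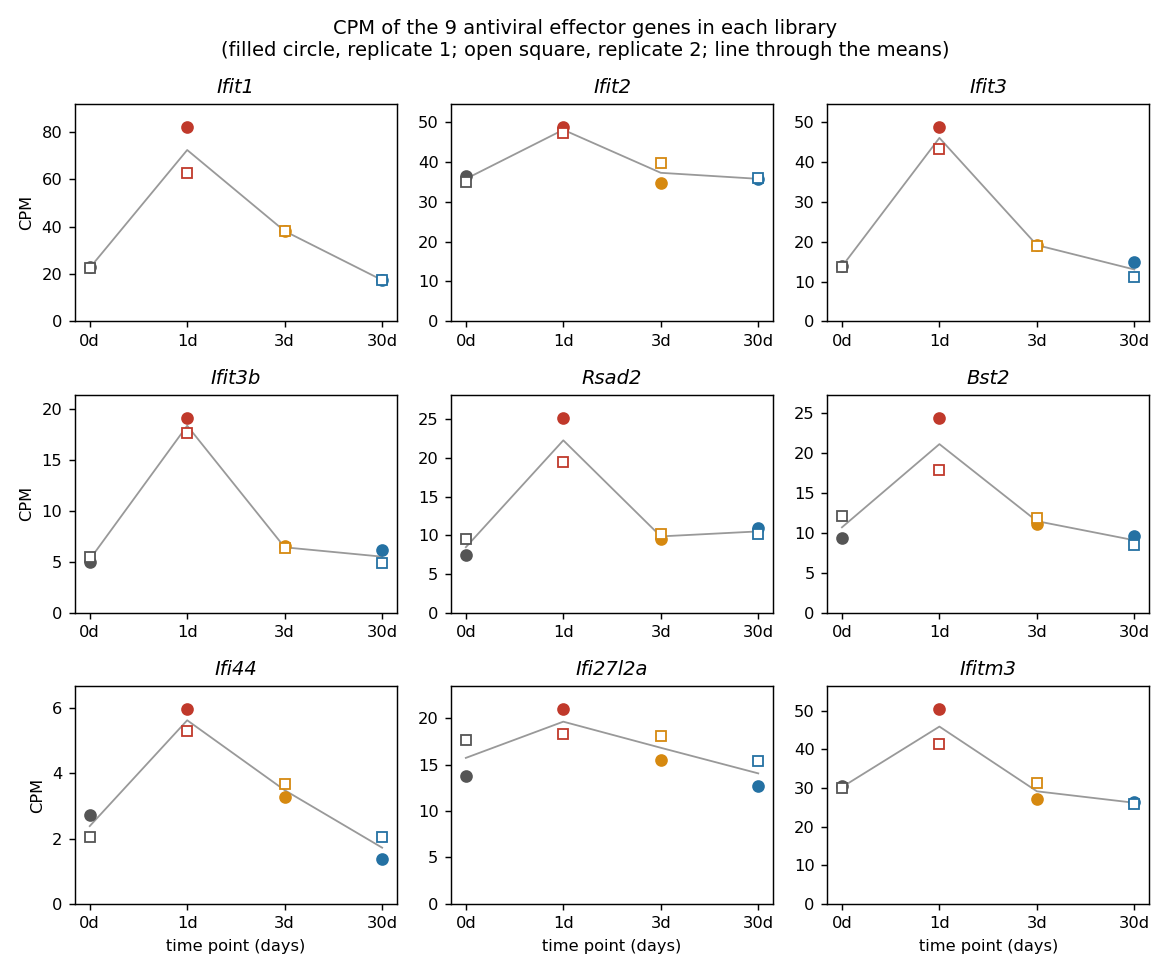
CPM (y axis, from 0, a scale for each gene) of the 9 genes by time point, with replicate 1 as a filled circle, replicate 2 as an open square and a line through the means. Every gene has its highest 2 libraries at 1d, from 5.95 and 5.29 CPM in Ifi44 to 82.2 and 62.7 in Ifit1.

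At 1d against 0d the log2 fold changes ranged from 0.32 to 1.81. Ifit3b (1.81, SE 0.14), Ifit3 (1.74, SE 0.12), Ifit1 (1.68, SE 0.10) and Rsad2 (1.40, SE 0.15) stood highest. Ifi44 was at 1.24 (SE 0.24), Bst2 at 0.98 (SE 0.16) and Ifitm3 at 0.60 (SE 0.09). Ifit2 was at 0.43 (SE 0.07) and Ifi27l2a at 0.32 (SE 0.14), the latter with 0.154 when 0d replicate 1 was left out and 0.511 when 0d replicate 2 was. By edgeR's quasi-likelihood test at an adjusted p of 0.05, 8 of the 9 were called higher, all but Ifi27l2a, where 0.329% of all tested genes were. The libraries did not overlap for 9 of 9, against 15.5% of all tested genes in that direction. These comparisons chose the genes, so nothing is read from either count. The count was 4 without 0d replicate 1, 5 without 0d replicate 2 and 4 without 1d replicate 1, and Ifit1, Ifit3, Ifit3b and Rsad2 were called in each of these fits. With all libraries, Ifi44 was not called by limma-voom or without robust estimation, and Bst2 was not called when 0d and 1d were fitted alone.

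The 2 1d libraries differed in how high these genes stood. Replicate 1 was above replicate 2 for 9 of 9 genes, by a median of 0.194 on the log2 CPM scale, whereas it was above for 49.7% of all tested genes. For Ifit1 it was 82.2 against 62.7 CPM and for Ifit2 it was 48.7 against 47.3. At 0d, 3d and 30d replicate 1 was above for 5, 2 and 5 of the 9. Both 1d libraries still stood above both 0d libraries for each gene.

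**Figure D3:**
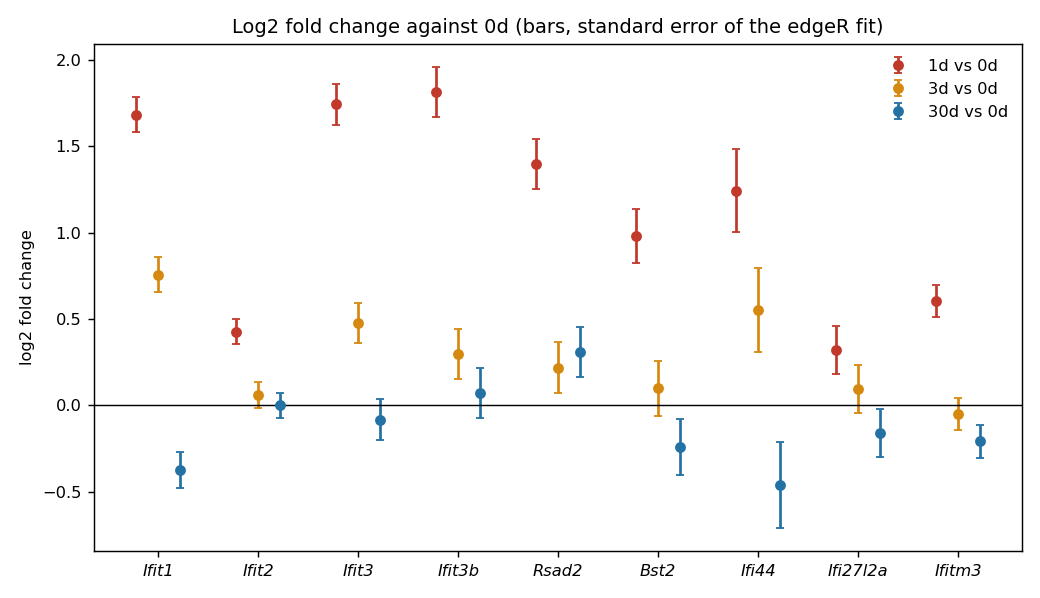
Log2 fold change against 0d (y axis) of each gene at 1d, 3d and 30d, with the standard error of the edgeR fit as bars. At 1d all 9 lie above 0, from 0.32 to 1.81, and at 3d Ifit1 (0.76) stands highest.

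How much of the 1d rise was left at 3d is described here for each gene, with no test between genes. Expressed as the 3d minus 0d difference in CPM over the 1d minus 0d difference, Ifit1 kept 31.3% (SE 6.11, propagated from the 2 libraries of each group) and Ifi44 34.0% (SE 9.92). Ifit3 kept 16.7% (SE 1.46) and its near copy Ifit3b 9.08% (SE 1.79). Rsad2 kept 10.1% (SE 7.29), Ifit2 12.4% (SE 21.4) and Bst2 7.43% (SE 13.01), and Ifitm3 was at -6.88% (SE 13.6), just under its 0d mean. For Ifi27l2a, whose rise was small, the share of 27.9% (SE 49.6) could not be told from 0 or from the whole rise. The ranges with each library left out did not overlap between Ifit1 (26.2% to 38.8%), Ifit3 (15.3% to 18.2%) and Ifit3b (7.48% to 10.6%). Such ranges are not intervals for the share, and 2 pools a time point allow no test of it. The order of these 3 genes is thus a description of these libraries. With a library left out Rsad2 ranged from 2.90% (without 0d replicate 1) to 16.4% (without 0d replicate 2), and Bst2 from -6.76% to 18.3% without the same libraries. Ifit2 ranged from -8.46% (without 3d replicate 2) to 33.2% (without 3d replicate 1), and Ifitm3 from -20.1% to 6.33% without the same libraries. The median over the 9 was 12.4%, with 7.47% without 0d replicate 1 and 8.16% without 3d replicate 2, and over the other 49 genes called higher at 1d it was 14.8%, with quartiles of 5.64% and 29.9%.

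**Figure D4:**
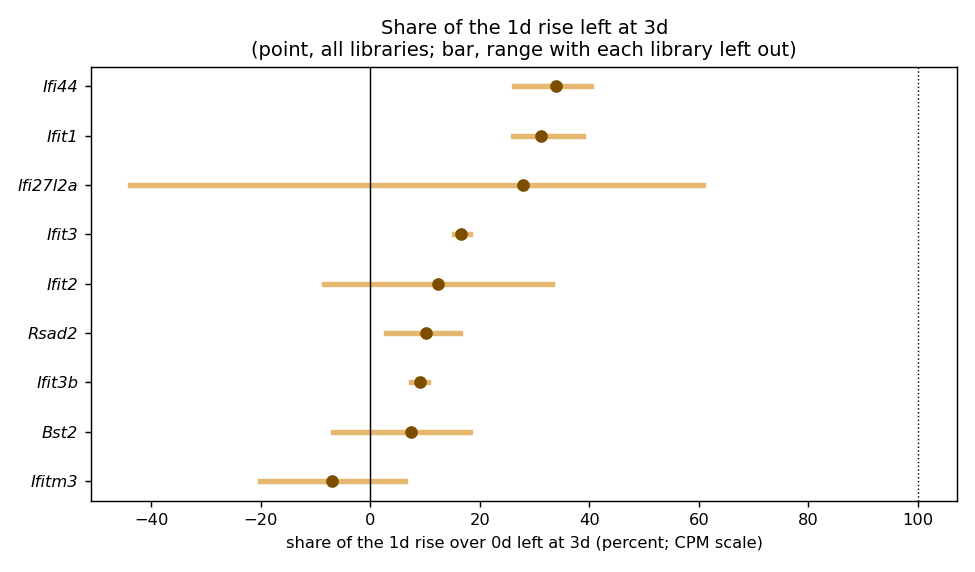
Share of the 1d rise over 0d that was left at 3d, in percent on the CPM scale, with a point for all libraries and a bar for the range when each library was left out. Ifi44 (34.0%) and Ifit1 (31.3%) lie highest, while the bars of Ifi27l2a, Ifit2, Bst2 and Ifitm3 cross 0.

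On the log2 scale the change from 1d to 3d was largest for Ifit3b (-1.52, SE 0.14), Ifit3 (-1.27, SE 0.11) and Rsad2 (-1.18, SE 0.14). Ifit1 (-0.92) and Bst2 (-0.88) came next, before Ifi44 (-0.69), Ifitm3 (-0.66), Ifit2 (-0.37) and Ifi27l2a (-0.22). Ifi27l2a was at -0.118 with 3d replicate 1 left out, -0.122 with 1d replicate 1 left out and -0.337 with 3d replicate 2 left out. The order by log2 change differed from the order by share left, in which Ifit3b, Rsad2 and Bst2 stand together near the bottom. At 3d, 6 of the 9 were called lower than at 1d, all but Ifit2, Ifi44 and Ifi27l2a, where 0.265% of all tested genes were. The count was 3 without 1d replicate 1, 2 without 3d replicate 1 and 4 without 3d replicate 2. The genes' choice used these values, so the counts stand as a description.

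At 3d against 0d only Ifit1 (0.76, SE 0.10) was called, higher, as were 0.19% of all tested genes. Without 0d replicate 1, 3d replicate 1 or 3d replicate 2 its call was lost, with log2 fold changes of 0.75 to 0.77, and without 30d replicate 1 or 30d replicate 2 the count was 2, with Ifit3. The others were at 0.55 (Ifi44, SE 0.24), 0.48 (Ifit3, SE 0.12), 0.30 (Ifit3b, SE 0.14), 0.22 (Rsad2, SE 0.15), 0.10 (Bst2 and Ifi27l2a), 0.06 (Ifit2) and -0.05 (Ifitm3). Leaving out 0d replicate 1 put Rsad2 at 0.056, and leaving out 0d replicate 2 put it at 0.409 and Ifi44 at 0.355. The 3d libraries stood above both 0d libraries for 5 of the 9, namely Ifit1, Ifit3, Ifit3b, Rsad2 and Ifi44, against 19.9% of all tested genes.

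At 30d 0 of the 9 were called different from 0d by edgeR's test, by DESeq2 or by limma-voom, where edgeR called 0.0231% of all tested genes. Unadjusted, 2 of the 9 had an edgeR p under 0.05. Ifit1 stood lower than at 0d, with a log2 fold change of -0.37 (SE 0.10, edgeR adjusted p = 0.191), and Ifitm3 was at -0.21 (SE 0.09, edgeR adjusted p = 0.393). In these 2 genes both 30d libraries lay under both 0d libraries, as for 20.2% of all tested genes. Rsad2, whose 30d libraries lay above those of 0d, as for 19.4% of all tested genes, was at 0.31 (SE 0.15, edgeR adjusted p = 0.413). Ifi44 was at -0.46 (SE 0.25, edgeR adjusted p = 0.478) and Bst2 at -0.24 (SE 0.16, edgeR adjusted p = 0.57), and the remaining 4 lay between -0.16 and 0.07. With a library left out Rsad2 ranged from 0.147 (without 0d replicate 1) to 0.498 (without 0d replicate 2), and Bst2 from -0.414 to -0.039 without the same libraries, with -0.157 without 30d replicate 2. Ifi44 ranged from -0.780 (without 30d replicate 2) to -0.207 (without 30d replicate 1), with -0.240 without 0d replicate 1.

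Between 3d and 30d Ifit1 and Ifit3 were called lower, 2 of 9 where 0.727% of all tested genes were. Ifit1 had a log2 fold change of -1.13 (SE 0.10) and was called with each library left out in turn. Ifit3 had -0.56 (SE 0.12) and was not called without 3d replicate 1, 3d replicate 2 or 30d replicate 2. It was at -0.36 without the last, since its 30d libraries were 14.9 and 11.1 CPM. Ifi44 had -1.01 (SE 0.24), a value near that of Ifit1 at far fewer reads. It was called without 0d replicate 2, which made the count 3, and without 30d replicate 2. Ifit3b had -0.23 (SE 0.14), with -0.398 when 30d replicate 1 was left out and -0.069 when 30d replicate 2 was, and whether it differed from Ifit3 was not tested. Markers of cell types moved in the same comparison. All 5 Schwann cell markers were lower at 30d (median log2 fold change -0.444), with sums of 8920 to 8990 CPM at 3d and 5408 to 7647 at 30d. Of these edgeR called 0, with 2 at an unadjusted p under 0.05, while DESeq2 and limma-voom called 1 each. All 4 red blood cell markers were higher at 30d (median 1.1), with sums of 125.5 to 130.3 CPM at 3d and 189.4 to 359.3 at 30d. By edgeR, DESeq2 and limma-voom 0 of these 4 were called. The satellite glia marker Apoe (-0.23, SE 0.04) and the neuronal marker Calca (-0.43, SE 0.05) were called lower by edgeR. The muscle marker Myh1 (1.35, SE 0.27) was called higher, and these 3 were named after their values were seen. Of the whole lists, 1 of 5 satellite glia, 2 of 9 neuronal and 2 of 6 muscle markers lay above 0. The list medians were -0.226, -0.078 and -0.0303. Most muscle markers thus did not share the rise of Myh1. The part of these markers in the values of Ifit1 and Ifit3 was not tested. The 30d libraries lay under both 3d libraries in 7 of the 9, against 23.5% of all tested genes. At 30d against 1d the log2 fold changes ran from -0.43 in Ifit2 to -2.06 in Ifit1, and 8 of the 9 were called lower, all but Ifi27l2a (-0.48). Without 1d replicate 1 or 1d replicate 2 the count was 7, with Ifit2 not called. The genes were chosen for being high at 1d, so this fall follows from the choice, and nothing is read from the 8 calls beside the 0.514% of all tested genes called lower.

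Close relatives of these genes, apart from the scarce Ifitm6, had log2 fold changes between -0.04 and 0.32 at 1d against 0d. Of 12 relatives listed, 8 could be tested, and edgeR's test and limma-voom called 0 in each of the 6 comparisons. At 1d against 0d 2 of the 8 had an unadjusted edgeR p under 0.05 and DESeq2 called 0, while DESeq2 called 1 of the 8 in 3 of the other comparisons. At 1d against 0d the IFIT relatives Ifit1bl1 and Ifit1bl2 were at 0.12 (SE 0.29) and 0.32 (SE 0.40). These SEs are too wide to show that they stayed at their 0d levels. Ifit1bl2 shares 50-base words with Ifit1, 7.06% of those of Ifit1. Among the membrane proteins of the Ifitm family, Ifitm2 stood at 25.5 CPM at 0d and had a log2 fold change of -0.04 (SE 0.09), beside 0.60 (SE 0.09) for Ifitm3 at 30.2 CPM. Ifitm1 (0.02, SE 0.22), Ifitm7 (0.05, SE 0.14) and Ifitm10 (0.18, SE 0.11) were also near 0. Ifitm6, at 0.511 CPM, had 1.13 with an SE of 0.46. Against 0d it was at 1.96 (SE 0.44) at 3d and 1.88 (SE 0.44) at 30d, not called. Ifi27, the relative of Ifi27l2a with the highest level in the ganglion, went from 89.9 to 99.99 CPM with a log2 fold change of 0.15 (SE 0.06). Its 1d libraries (94.9 and 105.1 CPM) stood above those of 0d (85.8 and 94.0). These differences between relatives were not themselves tested.

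**Figure D5:**
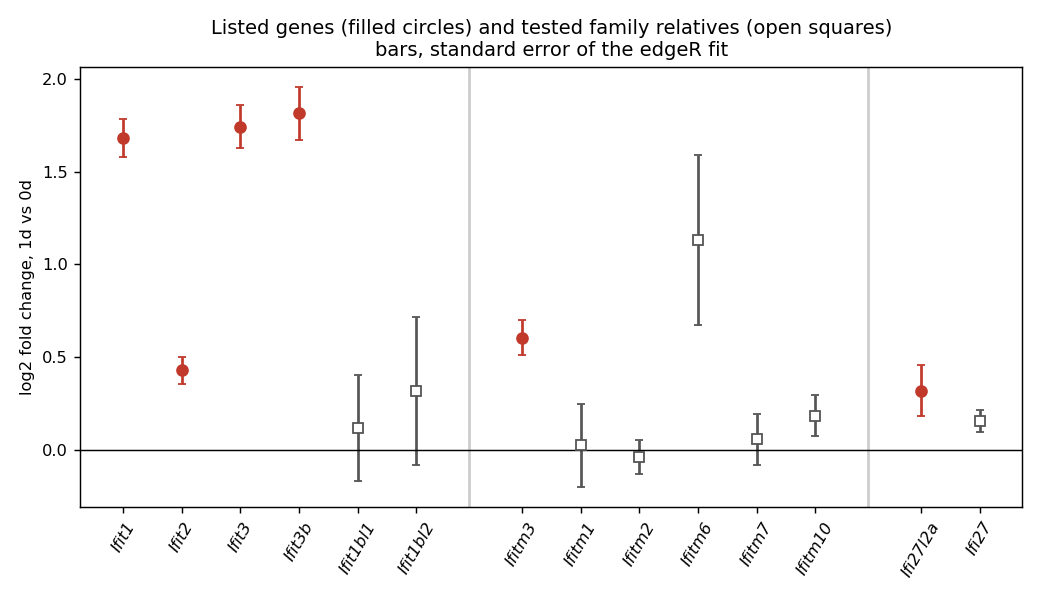
Log2 fold change at 1d against 0d (y axis) of the IFIT, IFITM and IFI27 genes described here (filled circles) and of their tested relatives (open squares), with the standard error of the edgeR fit as bars. Ifit1, Ifit3 and Ifit3b stand between 1.68 and 1.81, Ifitm3 is at 0.60, Ifit2 at 0.43 and Ifi27l2a at 0.32. The relatives lie between -0.04 and 0.32, the last shared by Ifit1bl2 and Ifi27l2a, except Ifitm6 at 1.13.

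The rest of the pathway was read from lists of its ligands, receptors, transcription factors and targets. These lists were chosen with earlier results of these data known, so their counts of calls are a description only. At 1d against 0d edgeR called 0.329% of all tested genes higher. Of the 10 interferon ligand genes none passed the filter, and all were at 0 counts in every library except Ifng with 3 counts in 1 of the 3d libraries. Reads mapping to several places were left out of the counts, so these values do not show that such transcripts were absent. Of the 9 receptor and kinase genes 0 were called in any comparison by edgeR's test, DESeq2 or limma-voom, with 1 at an unadjusted edgeR p under 0.05 at 1d against 0d. The first receptor chain of type I interferon, Ifnar1, was at 83.9 CPM at 0d and 85.8 at 1d. Of the 8 transcription factors 3 were called higher at 1d, among them Irf7, which drives interferon and its targets, with a log2 fold change of 1.64 (SE 0.16). Of the 10 nucleic acid sensors 3 were called higher, Ddx58 (0.73), Ifih1 (0.86) and Zbp1 (2.099). Of the 6 inhibitors of the signal Usp18, which acts at the receptor, was the 1 called, with 1.42 (SE 0.19). Of 32 other antiviral effectors 18 were called higher at 1d and 0 lower, with a median log2 fold change of 1.00 where that of the 9 genes was 1.24 and that of all tested genes -0.0032. At 3d against 0d, 1 of the 32 was called higher, Oasl2 (0.66, SE 0.07), where 0.19% of all tested genes were. At 30d against 0d edgeR, DESeq2 and limma-voom called 0 of 32, with 6 at an unadjusted edgeR p under 0.05. Of all tested genes edgeR called 0.0231% there.

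Over the 8 libraries the genes whose log2 CPM followed the mean pattern of the 9 most closely were Tapbp, Irf7, Dtx3l, Znfx1, Rtp4, Iigp1, Gbp3, Igtp, Rnf219 and Snx10, with Pearson's r from 0.963 to 0.984. The libraries fall into 1d and the rest, so r mostly orders genes by how cleanly 1d stands apart, whatever the size of the change. Snx10 was among them with a log2 fold change of 0.10 at 1d and Rtp4 with 1.68. With a library left out, 2 to 8 of the 10 stayed, the fewest without 1d replicate 1. Each of the 9 followed the mean of the other 8 with r from 0.79 (Ifi27l2a) to 0.97 (Bst2).

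Markers of other cells were read beside the 1d values. The 8 macrophage markers summed to 95.5 to 112 CPM at 0d and 111 to 112 at 1d, and 0 of 8 were called at 1d by edgeR's test, DESeq2 or limma-voom, with 2 at an unadjusted edgeR p under 0.05. The 3 plasmacytoid dendritic cell markers, cells known as a source of type I interferon, summed to 0.869 to 1.14 CPM at 0d and 1.23 to 1.28 at 1d, close to 0 throughout, and 0 of 3 were called at 1d by these tools, with 0 at an unadjusted edgeR p under 0.05. The 5 neutrophil markers in the table summed to 22.5 to 52.7 CPM at 0d, to 53.0 to 58.1 (1d), 78.0 to 80.5 (3d) and 57.0 to 110 (30d). Of these, 0 of 5 were called at 1d by these tools, again with 0 at an unadjusted edgeR p under 0.05. The 6 skeletal muscle markers went the other way, from 68.1 to 127 CPM at 0d to 27.1 to 58.6 at 1d, with 1 of 6 called lower by edgeR and DESeq2 and 0 by limma-voom. The 4 red blood cell markers summed to 95.3 to 193 CPM at 0d and 179 to 186 at 1d, all with log2 fold changes above 0 (median 0.433). The 5 satellite glia markers summed to 2967 to 3007 CPM at 0d and 2781 to 2890 at 1d. Their median log2 fold change was -0.07, with 2 of the 5 above 0, Glul (0.15) and Cdh19 (0.03). Kcnj10 was at -0.18 and Apoe at -0.07. Fabp7, named here after its values were seen, was the most extreme at -0.89 (SE 0.40). It went from 147.8 and 175.7 CPM to 90.9 and 83.2. None of the markers of red blood cells, satellite glia, Schwann cells, neurons, endothelium, T and NK cells or B cells was called at 1d by these tools, with 1 of the satellite glia and 1 of the neuronal markers at an unadjusted edgeR p under 0.05. The part of these cells in the 1d values was not tested.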

How the data were processed

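The authors deposited raw counts per gene for 8 libraries. Per the labels and the study's methods, reads were trimmed with cutadapt 2.10, aligned with STAR 2.7.5a to mm10 and counted over exons with featureCounts 2.0.1, without strand, with reads counted for every gene they overlap and reads mapping to several places left out. Libraries were grouped by the labelled time point. Genes with few counts were removed by edgeR's filterByExpr, which left 17328 of 24421, and edgeR 4.0.16 (R 4.3.3) with TMM scaling and robust quasi-likelihood tests was fitted once to all 8 libraries, with Benjamini-Hochberg adjustment over all tested genes. Log2 CPM used a prior count of 2. The steps were tested on simulated counts. Alternatives were DESeq2 1.42.0, limma-voom (limma 3.58.1), RLE size factors, column totals, no filter, a filter of 1 CPM in 2 libraries, no robust estimation, a replicate block, the compared groups alone, Ifit3 and Ifit3b summed, and each library left out. The 9 genes and the lists were chosen with earlier results of these data known. Named genes are the 9, their relatives, the list genes described and the 10 genes of most similar pattern. Promoters came from the RefSeq table of GRCm38.p6. Libraries of a group differed by more than counting noise (chi-square per degree of freedom 7.19 to 25.4).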

Additional observations from a re-analysis of the deposited data

Results flagged for a closer look

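Between 3d and 30d, 2 of the 9 genes were called lower by edgeR's test, which marked them for a closer look. The 3d values were in view when the genes were chosen, so the calls describe these libraries and are not independent evidence. Ifit1 had a log2 fold change of -1.13 (SE 0.10), from 38.1 and 38.3 CPM to 17.3 and 17.6, and was called under all 10 other settings and with each of the 8 libraries left out. Ifit3 had a log2 fold change of -0.56 (SE 0.12) and was called under 5 of the 10 other settings. Of all tested genes 0.727% were called lower in this comparison. In the same comparison all 5 Schwann cell markers were lower at 30d (median log2 fold change -0.444) and all 4 red blood cell markers higher (median 1.1). Apoe of satellite glia (-0.23) and Calca of neurons (-0.43) were called lower. In their lists 1 of 5 satellite glia and 2 of 9 neuronal markers lay above 0. The part of these markers was not tested.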

How the results depend on the processing

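At 1d against 0d 8 of the 9 genes were called, and 7 without robust estimation and with limma-voom, which lost Ifi44, and with the compared groups alone, which lost Bst2. At 3d against 1d the compared groups alone lost Ifit1 and no robust estimation lost Bst2, while Ifit2, not called with all libraries and the chosen settings, was called in 5 of 10 other settings and Ifi44 in 1 of 10. The number of the 9 genes called at 3d against 0d was 1, and it was 2 with no filter, with DESeq2 and with the compared groups alone, where Ifit3 joined Ifit1. At 30d against 3d it was 2, and 1 with column totals, without robust estimation, with limma-voom, with Ifit3 and Ifit3b summed and with the compared groups alone, each of which lost Ifit3 and kept Ifit1, and it was 3 with no filter and with DESeq2, which added Ifi44. With each library left out, the counts ranged from 4 to 8 at 1d against 0d, 0 to 2 at 3d against 0d, 2 to 7 at 3d against 1d, 1 to 3 at 30d against 3d and 7 to 8 at 30d against 1d, where fits with fewer libraries also have less power. At 30d against 0d the count was 0 under every setting. The median share left at 3d was 12.4%, with 10.4% to 16.6% under other scalings and 7.47% to 16.6% with a library left out. Signs that turned belonged to small log2 fold changes. Ifit2 at 30d against 0d was at -0.0012 with no filter. With a library left out the ranges at 3d against 0d were -0.042 to 0.158 (Ifit2), -0.074 to 0.302 (Bst2), -0.070 to 0.288 (Ifi27l2a) and -0.158 to 0.048 (Ifitm3). At 30d against 0d they were -0.027 to 0.028 (Ifit2), -0.31 to 0.11 (Ifit3), -0.10 to 0.23 (Ifit3b) and -0.328 to 0.029 (Ifi27l2a), and Ifit2 at 30d against 3d ranged from -0.157 to 0.042. The cause of these changes was not tested.

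The replicate numbers share no stated batch or animal, and same-numbered libraries did not deviate together (r across genes from -0.0144 to 0.0438). With the number as a replicate block, 7 in place of 6 of the 9 genes were called at 3d against 1d, with Ifit2 added, and the counts of the other 5 comparisons stayed at 8, 1, 0, 2 and 8.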
